A study of Mus musculus with 6 samples.

Results

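The S100 family consists of small calcium-binding proteins encoded, in the mouse, mostly by a gene cluster on chromosome 3. Here 10 of its genes were followed in mouse heart after myocardial infarction (MI), with members chosen by gene symbol and matched to the NCBI gene numbers of the expression files, which gave 10 of the 17441 genes listed in any library. The members were S100a1, S100a4, S100a6, S100a8, S100a9, S100a10, S100a11, S100a13, S100a16 and S100b, and the rule itself uses symbols and no measured value. The choice of members was, however, made with earlier results of these data known.

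RNA-seq libraries came from heart tissue below the ligature of male, 12-week-old mice, collected 3 days after surgery. WT Sham (n = 2) comprised wild-type mice operated on without coronary ligation, WT MI (n = 2) wild-type mice with the left anterior descending artery ligated, and Card9 KO MI (n = 2) Card9 knockout mice with the same ligation. All strains were on a C57BL/6 background. No restriction of the knockout to a cell type is given in the sources used here. A Card9 KO sham group was not analysed here, so that infarction and genotype cannot be told apart when Card9 KO MI is set against WT Sham. The sources used here do not say whether a library holds a single heart or pooled hearts, and p-values therefore measure the spread between libraries, which may be technical. Expression is given as FPKM, the fragments assigned to a gene relative to its transcript length and to all assigned fragments of its library, and from the spacing of low values each library was estimated to hold 3001059 to 4280052 assigned fragments.

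Card9, the targeted gene, measured 0.99 and 1.03 FPKM for WT Sham, 3.39 and 5.08 for WT MI and 9.85 and 6.94 for Card9 KO MI. The mice labelled as knockouts thus did not have lower Card9 FPKM than WT MI (log2 fold change 0.85, SE 0.23, limma adjusted p = 0.11). FPKM values do not show which exons were read, so this does not decide what the allele produced, and every direction between the infarct groups below rests on the labels. The tissue carried the marker genes of heart muscle, with the FPKM of 10 cardiomyocyte markers summing to 48300 and 49700 for WT Sham, 30500 and 31000 for WT MI and 25200 and 29200 for Card9 KO MI.

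S100 proteins carry EF-hand motifs, change shape when calcium binds and then dock onto target proteins inside the cell, and some of them are also released and bind receptors. S100A1 is the cardiomyocyte member, which acts on the calcium release channel and the calcium pump of the sarcoplasmic reticulum and favours contraction. S100A8 and S100A9 form calprotectin, an abundant cytosolic complex of neutrophils and monocytes that signals danger when released, whereas S100A4, S100A6, S100A10 and S100A11 are found in fibroblasts, endothelial cells and leukocytes, where they act on the cytoskeleton, membranes and annexins. S100B is best known from glia.

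The genes sit close together on the mm9 genome, and 9 of the 10 lie on chromosome 3. S100a1 (chr3:90314956-90318314, minus strand) and S100a13 (chr3:90318357-90328503, plus strand) are arranged head to head with 42 bases between their annotated starts, and no exon base is shared. S100a8 (chr3:90472993-90473956, plus strand) and S100a9 (chr3:90496554-90499643, minus strand) follow each other among the members, and S100a4 (chr3:90407692-90409967) precedes S100a6 (chr3:90416816-90418336). S100a11 (chr3:93324410-93330209) and S100a10 (chr3:93359002-93368565) form a separate pair, S100a16 (chr3:90341176-90347073) lies between S100a13 and S100a4, and S100b (chr10:75716598-75723904) is on chromosome 10, where its span overlaps the opposite-strand gene Dip2a without a shared exon base.

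RefSeq promoter windows, which run from 250 bases before to 50 bases after the annotated start, were found for 9 of the 10 members and were searched on both strands for 4 motifs. The letters TATAAA, the core of a TATA box, were found in 3 members, against 13.6% of all 32851 promoters in the table. In S100a8 they began 30 bases and in S100a4 31 bases before the start, and in S100a9 at the first base of the annotated transcript. The C/EBP-type letters TTGCNNAA were found in 1 member (S100a9, 236 bases before the start, 10.8% of all promoters), the AP-1 letters TGANTCA in 2 members (S100a11 and S100a16, 7.81%), and the NF-kappaB consensus in none (8.46%). None of the motifs overlapped another. The following stretches are shown because their genes diverge or move together in the comparisons: the 3 upstream windows of the members with the highest fold changes (TATAAA or TTGCTTAA in capitals, 5′ to 3′ on the gene's strand, NCBIM37, the mm9 assembly), and the whole stretch between S100a1 and S100a13 (plus strand, no motif match).
S100a8 (chr3:90472743-90472992): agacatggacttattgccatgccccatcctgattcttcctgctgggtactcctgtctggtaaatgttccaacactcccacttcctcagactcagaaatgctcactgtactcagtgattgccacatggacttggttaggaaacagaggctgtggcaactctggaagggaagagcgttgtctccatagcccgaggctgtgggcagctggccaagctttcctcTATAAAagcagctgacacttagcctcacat
S100a9 (chr3:90499644-90499893, minus strand): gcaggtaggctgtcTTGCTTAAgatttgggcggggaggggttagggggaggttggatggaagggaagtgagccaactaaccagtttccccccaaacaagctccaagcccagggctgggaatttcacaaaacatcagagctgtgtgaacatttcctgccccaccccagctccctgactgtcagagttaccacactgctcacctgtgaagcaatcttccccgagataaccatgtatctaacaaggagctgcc
S100a4 (chr3:90407442-90407691): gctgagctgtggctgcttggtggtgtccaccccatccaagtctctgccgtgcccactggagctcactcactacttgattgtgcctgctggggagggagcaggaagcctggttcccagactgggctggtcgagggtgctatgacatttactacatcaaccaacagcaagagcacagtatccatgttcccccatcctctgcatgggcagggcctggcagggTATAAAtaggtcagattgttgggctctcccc
Between S100a1 and S100a13 (chr3:90318315-90318356): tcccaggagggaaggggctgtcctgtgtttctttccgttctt

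In the uninjured heart the family was dominated by a single gene. S100a1 averaged 1380 ± 88.4 FPKM (SD, n = 2) in WT Sham and made up 86.4% and 86.1% of the summed FPKM of the 10 members. S100a11 followed at 98.3 ± 1.02, then S100a10 at 37.5 ± 0.02, S100a16 at 31.4 ± 2.26, S100a13 at 27.6 ± 1.79 and S100a6 at 19.2 ± 6.98 FPKM, and each of these stood apart from its neighbour in the order in both libraries. S100a4 (3.62 ± 2.24), S100a9 (1.39 ± 0.95), S100a8 (1.33 ± 0.59) and S100b (0.58 ± 0.53) overlapped with their neighbours.

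**Figure D1:**
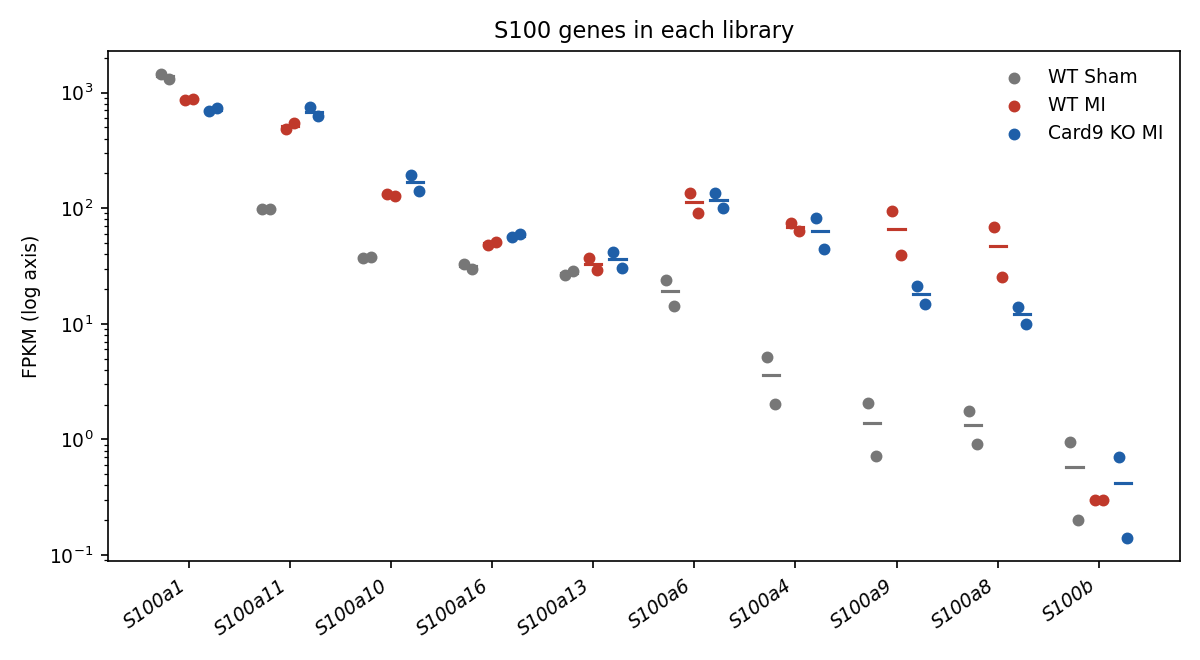
FPKM of the 10 S100 genes on a log axis, with a point for each library (grey WT Sham, red WT MI, blue Card9 KO MI, n = 2 per group) and a line at the group mean. S100a1 is highest in WT Sham at 1322 and 1447 FPKM, whereas S100a8 and S100a9 are at most 2.06 FPKM there and highest in WT MI.

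The question put to the family in the wild-type hearts was how infarction changed it. At 3 days post-MI, 7 of the 9 tested members were higher and 1, S100a1, was lower in WT MI relative to WT Sham (limma adjusted p under 0.05), where 27.7% of all 13120 tested genes were higher and 9.39% were lower. The members' median log2 fold change was 2.38, against 0.19 over all tested genes. The median of all genes depended on the scaling (-0.08 to 0.19), and each of these 8 calls kept its direction under every scaling tried. S100b did not pass the filter on low values and was not tested. S100a8 and S100a9 each reached an FPKM of 1 in only 1 sham library, so their entry to the test depended on infarct libraries.

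S100a1, the contractile regulator of cardiomyocytes, measured 1447 and 1322 FPKM for WT Sham, 863 and 884 for WT MI and 686 and 736 for Card9 KO MI. The groups did not overlap. In WT MI it stood at 63.1% of the sham mean (log2 fold change -0.66, SE 0.09, adjusted p = 0.0013), with a range of -0.88 under upper-quartile scaling to -0.39 under quantile normalization. Genes of heart muscle also fell, with 7 of 10 cardiomyocyte markers lower in WT MI (9.39% of all tested genes) and none higher. As a share of the summed FPKM of these markers, S100a1 was 3.0% and 2.66% for WT Sham, 2.83% and 2.86% for WT MI and 2.72% and 2.52% for Card9 KO MI. These shares overlapped between WT Sham and WT MI, and both Card9 KO MI shares lay below those of WT MI. Single reference genes gave other answers. As a percentage of Tnnt2, a marker of this list, S100a1 fell from 21.6 and 18.2 (WT Sham) to 13.6 and 15.3 (WT MI). As a percentage of Atp2a2, the calcium pump gene, it rose from 39.4 and 33.2 to 52.7 and 46.1. In a bulk sample, fewer cardiomyocytes and less S100a1 RNA per cardiomyocyte cannot be told apart.

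The genes whose pattern across the 6 libraries was most like that of S100a1, by the root mean square distance of centred log2 values over 13119 other genes, were Ndufab1, Slc25a4, Ndufb9, Amacr and 9330162012Rik, at distances of 0.04 to 0.05. Ndufab1 and Ndufb9 encode subunits of mitochondrial complex I and Slc25a4 the ADP/ATP carrier of the inner mitochondrial membrane. Slc25a4 measured 3670 and 3595 FPKM for WT Sham, 2331 and 2276 for WT MI and 1749 and 2016 for Card9 KO MI.

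S100a13, whose product takes part in the export of FGF1 and interleukin-1α, was not lower after infarction, unlike its head-to-head neighbour. It measured 26.3 and 28.9 FPKM for WT Sham, 37.0 and 29.4 for WT MI and 41.6 and 30.4 for Card9 KO MI. Its difference between WT MI and WT Sham missed the threshold (log2 fold change 0.25, 95% interval -0.15 to 0.65, adjusted p = 0.29) and came to 0.04 under upper-quartile scaling. The 42 bases shown above thus separated the start of a gene at 63.1% of its sham level from that of a gene at 120%, the latter not past the test. S100a1 per S100a13 was 55.0 and 45.8 for WT Sham, 23.3 and 30.1 for WT MI and 16.5 and 24.2 for Card9 KO MI, and the sham libraries did not overlap with those of either infarct group.

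The calprotectin genes had the largest fold changes of the 10. S100a8 measured 1.75 and 0.91 FPKM for WT Sham, 68.9 and 25.3 for WT MI and 14.1 and 10.02 for Card9 KO MI. S100a9 measured 2.06 and 0.72, then 94.0 and 39.2, then 21.2 and 14.7. For either gene both WT MI libraries lay above all libraries of the other groups, and the WT MI libraries differed from each other by more than the Card9 KO MI libraries did. The rise in WT MI passed the test for S100a8 (log2 fold change 4.22, SE 0.42, adjusted p = 0.0003) and for S100a9 (4.75, SE 0.42, adjusted p = 0.00018).

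The sham values of this pair rested on very few fragments, an estimated 3 in all for S100a8 and 4 for S100a9. The depth-corrected ratio of estimated fragments in WT MI to WT Sham was 38.2 for S100a8 (exact 95% interval 12.8 to 187, counting error only) and 53.6 for S100a9 (20.7 to 198). S100a9 per S100a8 was 1.36 and 1.55 for WT MI, 1.5 and 1.47 for Card9 KO MI and, on the few fragments of the sham libraries, 1.18 and 0.79. S100a9 was also the gene most like S100a8 in pattern (distance 0.27), followed by Nmrk2, Mmp9, Il1r2 and Serpina3n at 0.5 to 0.53. For S100a9, S100a8 was followed by AA467197, Clec4d, Chil3 and Serpina3n. Mmp9 encodes the matrix metalloproteinase stored in neutrophil granules and Il1r2 the decoy receptor for interleukin-1. Nmrk2, at the same distance from S100a8 as Mmp9, measured 9.3 and 5.86 FPKM for WT Sham, against 0.69 and 0.51 for Mmp9. Whether the genes of these lists share a cell type was not tested.

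Among the widely expressed members, S100a11 reached the highest level. It measured 97.6 and 99.0 FPKM for WT Sham, 484 and 550 for WT MI and 748 and 622 for Card9 KO MI. S100a11, which binds annexin A1 and takes part in membrane repair, rose 5.26-fold in WT MI (log2 fold change 2.38, SE 0.11, adjusted p = 2.3e-05). RefSeq lists a pseudogene of S100a11, S100a11-ps, and reads could have been shared with it.

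S100a10, the light chain of the annexin A2 heterotetramer that binds plasminogen at the cell surface and, unlike its relatives, does not bind calcium, measured 37.4 and 37.5 FPKM for WT Sham, 132 and 127 for WT MI and 193 and 142 for Card9 KO MI. The sham libraries lay below all infarct libraries. It rose in WT MI by 1.76 on the log2 scale (SE 0.14, adjusted p = 0.00013). Its nearest genes in pattern were Tkt, Tpm4, Iqgap1, Eef1a1 and Tpm3 (distances 0.04 to 0.07), of which Tpm3 and Tpm4 encode tropomyosins of the actin cytoskeleton and Iqgap1 an actin-binding scaffold.

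S100a4, also called fibroblast-specific protein, binds non-muscle myosin and is made by leukocytes as well. It measured 5.21 and 2.04 FPKM for WT Sham, 74.9 and 63.4 for WT MI and 82.8 and 44.4 for Card9 KO MI. The infarct libraries lay far above the sham libraries (log2 fold change 4.01, SE 0.37, adjusted p = 0.00021), although the sham values rested on about 9.63 and 3.59 fragments. Closest in pattern were Clec4d, a C-type lectin receptor of myeloid cells, at 0.21, and Slc16a3, Itgb2 and Lilr4b at 0.32 to 0.33, of which Itgb2 encodes the leukocyte integrin β chain.

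S100a6, calcyclin, measured 24.1 and 14.2 FPKM for WT Sham, 134 and 90.7 for WT MI and 134 and 100 for Card9 KO MI. Its rise in WT MI was 2.51 on the log2 scale (SE 0.27, adjusted p = 0.00041). S100a16, a broadly expressed member, measured 33.0 and 29.8, then 48.4 and 50.9, then 56.0 and 59.3 FPKM. S100a16 had the smallest rise that passed the test (0.65, SE 0.10, adjusted p = 0.0022), and none of its groups overlapped.

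S100b, the glial member, measured 0.95 and 0.2 FPKM for WT Sham, 0.3 and 0.3 for WT MI and 0.7 and 0.14 for Card9 KO MI. These values correspond to between 0.86 and 4.45 fragments per library, so no difference was detectable at this depth. The 10 Schwann and glial markers summed to 7.32 and 7.39 FPKM for WT Sham, 15.9 and 14.4 for WT MI and 13 and 16 for Card9 KO MI. Of the 3 markers tested, Cnp and Mbp were higher in WT MI, where 27.7% of all tested genes were higher. Mbp was at 0.83 and 0.93 FPKM in WT Sham and entered the test only through infarct libraries. Sox10, a defining factor of the glial lineage, was not tested and stayed at no more than 0.93 FPKM. The genes most like S100b in pattern (2310039H08Rik, Haus1, Kazald1, Rps6kl1 and Celf4) were found by a pattern resting on these few fragments. S100a3, S100a7a and S100a14, which are not among the members, did not exceed 1.06, 0.71 and 0.28 FPKM in any library. S100a5, S100g and S100z were not listed in any library.

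**Figure D2:**
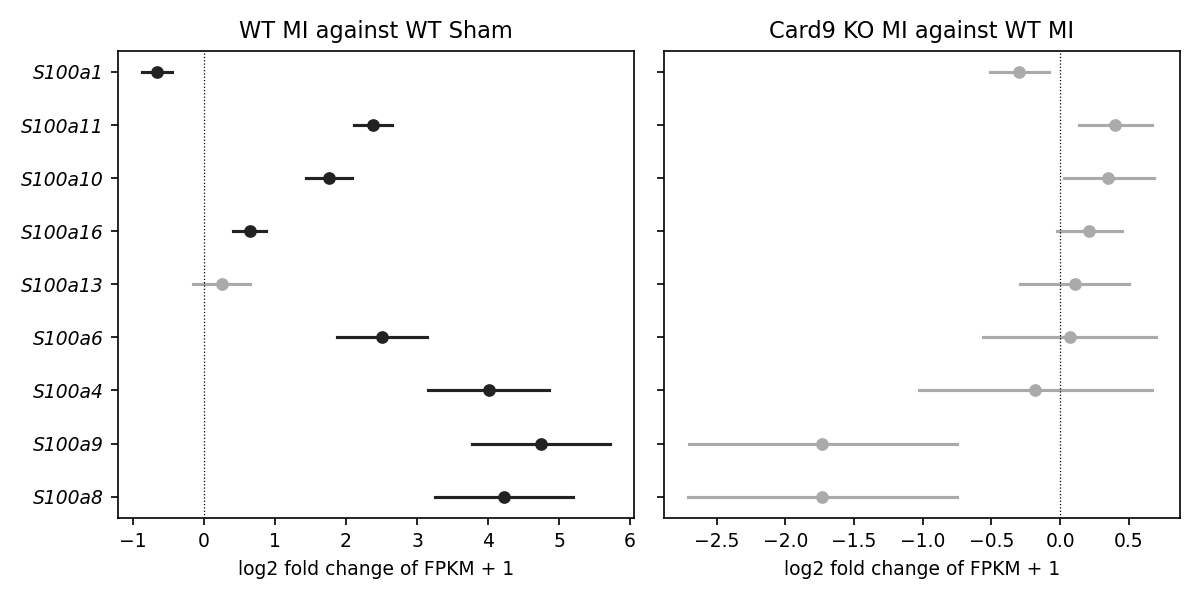
Log2 fold changes of FPKM + 1 with 95% confidence intervals for the 9 tested S100 genes, in WT MI against WT Sham (left) and Card9 KO MI against WT MI (right, a different horizontal scale), with differences past an adjusted p of 0.05 in black and the others in grey. On the left 8 genes are black and only S100a1 lies below 0, and on the right all are grey, with S100a8 and S100a9 at -1.73.

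The comparison of the infarct groups asked whether the family differed with the Card9 label. None of the 9 tested members passed the test in either direction (limma, adjusted p under 0.05), where 0.816% of all tested genes were higher and 0.587% were lower in Card9 KO MI. At an unadjusted p under 0.05 there were 5 of the 9 members and 2629 of the 13120 genes. In 3 members (S100a10, S100a11 and S100a16) both Card9 KO MI libraries lay above both WT MI libraries, as they did in 30.8% of all genes, and in 3 members (S100a1, S100a8 and S100a9) both lay below, as in 21.9% of all genes. With 9 members these shares are near the background. S100a4, S100a6 and S100a13 overlapped between the infarct groups.

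S100a8 and S100a9 showed the largest differences between the infarct groups. S100a8 averaged 12.1 ± 2.88 FPKM in Card9 KO MI and 47.1 ± 30.9 in WT MI (SD, n = 2 each), which is 25.6% of the WT MI mean (log2 fold change -1.73, 95% interval -2.71 to -0.75, adjusted p = 0.094). For S100a9 the means were 18.0 ± 4.58 and 66.6 ± 38.7 (log2 fold change -1.73, 95% interval -2.70 to -0.75, adjusted p = 0.094). Neither passed the threshold. Without WT MI replicate 2, the lower of the WT MI libraries, the S100a8 difference was -2.44 (adjusted p = 0.05, below the threshold before rounding), and without WT MI replicate 1 it was -1.03. For S100a9 the values with each library left out ran from -2.35 to -1.11. By estimated fragments alone, the ratio of Card9 KO MI to WT MI was 0.256 (exact 95% interval 0.176 to 0.365) for S100a8 and 0.27 (0.207 to 0.348) for S100a9, which covers counting error only and not the spread between hearts.

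Neutrophil markers moved alongside. Of 12 markers 9 were listed, and Ly6g, Camp and Elane were not listed in any library. The summed FPKM of the listed markers was 36.6 and 40.9 for WT Sham, 186 and 137 for WT MI and 59.3 and 52.2 for Card9 KO MI. All 6 tested markers rose in WT MI (27.7% of all tested genes), and between the infarct groups 1, Lrg1, was lower in Card9 KO MI (0.587%). Il1r2, Mmp8 and Retnlg were below 1 FPKM in both sham libraries and entered the test only through infarct libraries. For them the filter itself favoured a rise, and the share over all genes is no fair measure. Ngp, Ltf and Mpo did not enter the test. Lrg1 carried most of the summed FPKM of the listed markers and was already at 32.6 and 37.1 FPKM in WT Sham. Without it, the remaining 8 markers summed to 4.06 and 3.77 for WT Sham, 64.7 and 33.8 for WT MI and 26.5 and 23.8 for Card9 KO MI. The granule genes of immature neutrophils, Ngp, Ltf and Mpo, stayed at or below 0.27 FPKM in every library.

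Relative to Csf3r, the receptor for granulocyte colony-stimulating factor, S100a8 stood at 2.4 and 1.75 in WT MI and at 1.01 and 0.86 in Card9 KO MI. Csf3r itself measured 28.8 and 14.5 FPKM for WT MI and 14.01 and 11.6 for Card9 KO MI. The ratio of S100a8 to Csf3r thus did not overlap between the infarct groups. The outcome depended on the marker chosen. With Cxcr2 or Mmp8 as the reference the groups were likewise apart in this direction, but with Lrg1 or Retnlg they overlapped. With Il1r2 the direction turned, as both knockout-labelled libraries had the larger ratio. Il1r2 measured 15.59 and 5.09 FPKM for WT MI, against 1.9 and 1.8 for Card9 KO MI. Ratios are given as a description with no test; an exact permutation test of 2 libraries against 2 cannot give a p below 0.333. In macrophages and monocytes, which can also hold calprotectin, the 12 listed markers summed to 417 and 357 FPKM for WT Sham, 1470 and 1870 for WT MI and 2980 and 2170 for Card9 KO MI, with no marker past the test between the infarct groups. The part of these cell types in the S100a8 and S100a9 values was not tested.

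**Figure D3:**
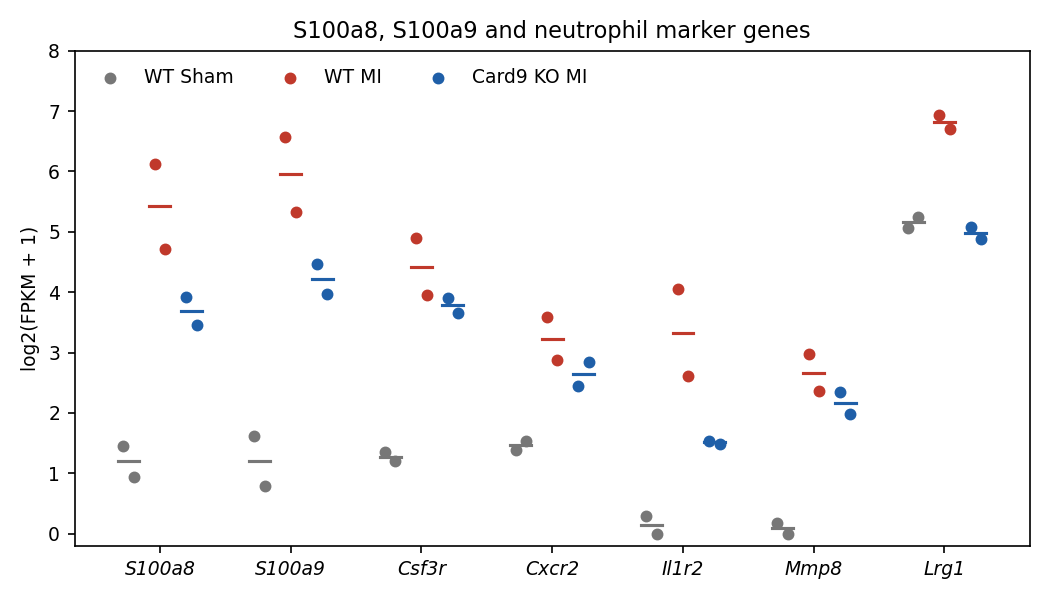
Expression of S100a8 and S100a9 beside 5 neutrophil markers as log2(FPKM + 1), with a point for each library (grey WT Sham, red WT MI, blue Card9 KO MI) and a line at the group mean. Card9 KO MI libraries lie below WT MI libraries for every gene shown, as they do in 21.9% of all tested genes. The gaps between means are widest for S100a8, S100a9, Il1r2 and Lrg1. The nearest libraries of the infarct groups are close for Cxcr2 (6.31 and 6.17 FPKM), Mmp8 (4.13 and 4.06) and Csf3r (14.5 and 14.01). Of the markers shown, only Lrg1 passed the test between the infarct groups.

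S100a11 and S100a10 lay on the other side. S100a11 averaged 685 ± 88.9 FPKM in Card9 KO MI against 517 ± 46.3 in WT MI (log2 fold change 0.40, 95% interval 0.14 to 0.67, adjusted p = 0.12). S100a10 differed by 0.35 (95% interval 0.03 to 0.68, adjusted p = 0.22; 0.13 without Card9 KO MI replicate 1 and 0.57 without replicate 2) and S100a16 by 0.21 (adjusted p = 0.29). Fibroblast markers moved in the same direction, with 4 of 10 (Col1a1, Col1a2, Postn and Thy1) higher in Card9 KO MI. Of all tested genes 0.816% were higher in this comparison. The fibroblast markers summed to 662 and 610 FPKM for WT Sham, 2220 and 2750 for WT MI and 4310 and 3920 for Card9 KO MI. Smooth muscle markers moved likewise, with 2 of 4 (Acta2 and Tagln) higher and summed FPKM of 56.2 and 74.6 for WT Sham, 164 and 152 for WT MI and 393 and 367 for Card9 KO MI. The median log2 fold change between the infarct groups was 0.65 for the fibroblast, 1.1 for the smooth muscle and 0.73 for the macrophage and monocyte markers. The part of these cell types in the values of S100a10, S100a11 and S100a16 was not tested.

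S100a1 was at 81.4% of its WT MI mean in Card9 KO MI (log2 fold change -0.30, 95% interval -0.51 to -0.08, adjusted p = 0.14). S100a4 differed by -0.18 with an interval of -1.03 to 0.67, and its sign turned to 0.26 without Card9 KO MI replicate 2. S100a6 (0.07, 95% interval -0.56 to 0.70) and S100a13 (0.11, -0.29 to 0.50) also changed sign when single libraries were left out. For these genes the interval leaves room for changes in both directions.

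Against WT Sham, whose libraries also served the comparison with WT MI, Card9 KO MI again had 7 of 9 members higher and S100a1 lower, where 34.8% of all genes were higher and 14.3% were lower. Side by side, the log2 fold changes of WT MI and of Card9 KO MI were -0.66 and -0.96 for S100a1, 4.22 and 2.49 for S100a8, 4.75 and 3.03 for S100a9, and 2.38 and 2.78 for S100a11. S100a8 (adjusted p = 0.0021) and S100a9 (adjusted p = 0.00079) passed the test in the Card9 KO MI libraries too. S100a13 did not pass this test (0.36, adjusted p = 0.12).

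The composition of the family shifted more than its sum. The FPKM of the 10 members summed to 1680 and 1540 for WT Sham, 1940 and 1860 for WT MI and 1980 and 1760 for Card9 KO MI. S100a1 supplied 86.4% and 86.1% of it for WT Sham, 44.5% and 47.5% for WT MI and 34.7% and 41.8% for Card9 KO MI. The 6 widely expressed members together supplied 13.3% and 13.8%, then 47.0% and 49.0%, then 63.5% and 56.7%. S100a8 and S100a9 supplied 0.227% and 0.106%, then 8.41% and 3.47%, then 1.79% and 1.41%.

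These shares compare genes within a library and are not changed by a scaling factor applied to a whole library. The ratio of the widely expressed members to S100a1, on a log2 scale, differed by 2.73 between WT MI and WT Sham (pooled SD between replicates 0.03; 2.32 after quantile normalization, which is not a single factor per library) and by 0.59 between Card9 KO MI and WT MI (SD 0.22), higher in the group named before the other. The ratio of S100a8 plus S100a9 to S100a1 differed by 6.03 between WT MI and WT Sham (SD 0.88) and by -1.5 between Card9 KO MI and WT MI (SD 0.75). The groups did not overlap in any of these 4 comparisons, and they are given as values with no test. All 4 divide by S100a1 and use the same WT MI libraries, so they are not separate observations. Single genes were often apart between the infarct groups too, 30.8% of all tested genes being higher and 21.9% lower without overlap. In Card9 KO MI the order at the top of the family was no longer clear, since S100a11 exceeded S100a1 in replicate 1 (748 against 686 FPKM) and was below it in replicate 2 (622 against 736).

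**Figure D4:**
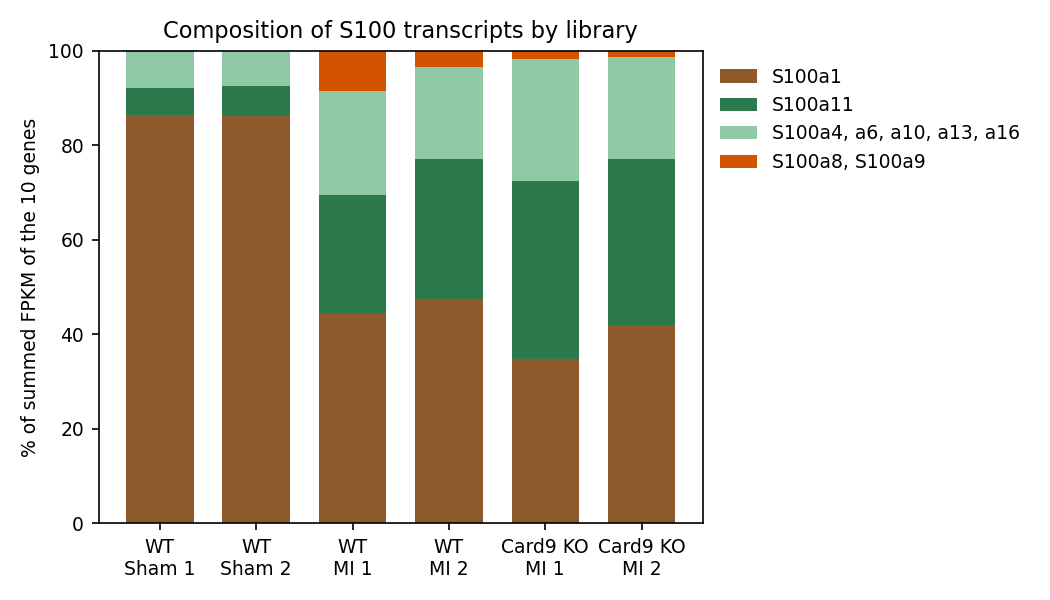
Stacked bars of the share of the summed FPKM of the 10 S100 genes, in percent, for each of the 6 libraries (S100b is too small to see). S100a1 takes 86.1% to 86.4% for WT Sham, 44.5% to 47.5% for WT MI and 34.7% to 41.8% for Card9 KO MI, and S100a8 with S100a9 reaches 8.41% in WT MI replicate 1.

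Genes for the receptors, targets and partners of S100 proteins were examined as a list of 25, of which 21 were tested. In WT MI, 11 were higher and 6 were lower than in WT Sham (adjusted p under 0.05), with a median log2 fold change of 0.41, where 27.7% of all tested genes were higher and 9.39% lower and their median was 0.19. Of the receptors and transporters for calprotectin, Tlr4, the pattern-recognition receptor, rose from 4.08 and 2.47 FPKM to 6.50 and 5.64 (log2 fold change 0.75, adjusted p = 0.025). The call for Tlr4 was lost under upper-quartile scaling, under quantile normalization and without a filter on low values. It was also lost without WT Sham replicate 2, WT MI replicate 1 or WT MI replicate 2. Emb and Mcam, which encode adhesion molecules that bind S100A8 and S100A9, rose by 3.12 and 1.49 on the log2 scale (adjusted p = 4.8e-05 and 0.00034). The sham values of Emb, 0.36 and 0.5 FPKM, rested on about 2.55 and 3.38 fragments. Emb thus entered the test only through infarct libraries. Cd36, the fatty acid transporter that takes up arachidonic acid carried by calprotectin, and Bsg, a receptor for S100A9, fell (-0.42, adjusted p = 0.02 and -0.59, adjusted p = 0.002). Ager, the receptor for advanced glycation end products, measured 0.24 and 0.25 FPKM in WT Sham and 1.31 and 0.19 in WT MI, with no difference past the test (adjusted p = 0.36). The WT MI values rested on about 11.3 and 1.59 fragments. In Card9 KO MI Ager measured 1.73 and 1.74 FPKM. It was called higher there than in WT Sham (log2 fold change 1.14, limma adjusted p = 0.023), though not under every alternative. Against WT MI it did not pass the test (0.72, adjusted p = 0.27).

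The annexin partners rose together with their S100 genes. Anxa2, the partner of S100a10, went from 38.3 and 28.1 FPKM for WT Sham to 236 and 201 for WT MI and 316 and 246 for Card9 KO MI. Its rise in WT MI was 2.69 on the log2 scale (SE 0.18, adjusted p = 5.5e-05). Anxa2 per S100a10 was 1.02 and 0.75 for WT Sham, 1.78 and 1.58 for WT MI and 1.63 and 1.73 for Card9 KO MI. Anxa1, the partner of S100a11, went from 15.8 and 7.63 FPKM to 62.9 and 67.6 in WT MI (2.46, SE 0.30, adjusted p = 0.00072). Plau and Plat, the plasminogen activators whose product plasmin forms on the S100A10 complex, rose by 2.24 (adjusted p = 0.00022) and 0.86 (adjusted p = 0.0029). Myh9, the non-muscle myosin heavy chain bound by S100A4, rose by 1.5 (adjusted p = 0.00012), from 37.7 and 34.7 FPKM to 106 and 102.

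The calcium-handling targets of S100A1 were lower too. Atp2a2, the calcium pump of the sarcoplasmic reticulum, went from 3670 and 3979 FPKM in WT Sham to 1637 and 1919 in WT MI (log2 fold change -1.11, SE 0.14, adjusted p = 0.00072). Pln, the inhibitor of that pump, fell by 0.54 (adjusted p = 0.0082) and Ryr2, the calcium release channel, by 0.49 (adjusted p = 0.0099). Pln and Ryr2 are also among the cardiomyocyte markers already counted as lower above. S100a1 as a percentage of Atp2a2 was 39.4 and 33.2 for WT Sham, 52.7 and 46.1 for WT MI and 45.7 and 39.5 for Card9 KO MI. The calls for Cd36, Pln and Ryr2 were lost when single libraries were left out. That for Cd36 was also lost without the eBayes trend, and that for Pln under quantile normalization (-0.18, adjusted p = 0.3).

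Among the remaining partner genes, Ahnak, a giant scaffold protein bound by the S100A10 and annexin A2 complex, was called at 0.29 (adjusted p = 0.046). This call was lost under all 3 other scalings, with only the 2 groups compared and without the eBayes trend. It was also lost with the replicate block and with any library of these groups left out. Trp53 (1.07, adjusted p = 0.00028) and Ywhaz (0.91, adjusted p = 0.00064) rose and Mapt fell (-1.27, adjusted p = 0.0012). These genes encode p53, a 14-3-3 protein and tau, which S100 proteins can bind. Fgf1, the growth factor exported with S100A13, measured 80.5 and 91.8 FPKM for WT Sham, 78.4 and 64.6 for WT MI and 46.4 and 57.7 for Card9 KO MI, and did not pass the test in WT MI (adjusted p = 0.18). Cacybp, the calcyclin-binding protein of S100A6, stayed between 28.7 and 35.7 FPKM in all 6 libraries.

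Between the infarct groups none of the 21 partner genes passed the test, where 0.816% of all tested genes were higher and 0.587% lower. At an unadjusted p under 0.05 there were 7 of the 21 partner genes and 2629 of the 13120 genes. Pln (-0.58, adjusted p = 0.058) and Cd36 (-0.53, adjusted p = 0.061) came nearest. Against WT Sham, Card9 KO MI had 12 partner genes higher and 7 lower, where 34.8% of all tested genes were higher and 14.3% lower.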

How the data were processed

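The authors extracted total RNA with TRIzol from cardiac tissue below the ligature, made poly(A)-enriched libraries with a TruSeq kit, sequenced them on an Illumina HiSeq, mapped filtered reads to mm9 with BWA and Bowtie2 (versions not given in the sources used here) and deposited FPKM values under NCBI gene numbers, rounded to 2 decimals. FPKM is scaled to the fragments of each library, so large changes of abundant genes shift all others. The gene annotation behind the values and the use of strand are not given in the sources used here. Libraries held 14935 to 15852 listed genes, and a gene absent from a file was set to 0. Symbols were matched for 17390 gene numbers and not for 51. Gene positions came from GENCODE vM1 on NCBIM37, the same assembly as mm9. Promoter sequences were those of RefSeq on GRCm38.p6, placed on NCBIM37 by exact match.

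Groups followed the sample titles. Values were compared as log2(FPKM + 1) with limma 3.58.1 in R 4.3.3 (lmFit and eBayes with trend), with all 3 groups in 1 fit. Genes entered the test if 2 or more libraries reached an FPKM of 1 (13120 genes). Benjamini-Hochberg adjustment covered all of them, and calls were made at an adjusted p under 0.05. Fold changes on this scale understate those of low genes. Fragments per library were estimated from the spacing of low FPKM values, of which 70.0% to 76.5% lay within 0.15 of a whole number of fragments. In simulated libraries the error of the depth was at most 0.182%. The limma script was tested on simulated data for WT MI against WT Sham, where it recovered 118 of 200 changed genes among 12779, with 5 false calls. Named were all 10 members, Card9, the other listed S100 genes, genes of the partner list with a described role, and, for 6 members, the 5 genes of most similar pattern, apart from items that are not reported here. Marker genes were named beside these where a value turned on them, after their values were seen. Members and gene lists were chosen with earlier results of these data known. Alternatives were other pseudocounts, filters, scalings and model settings, a replicate block, and leaving out each library.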

Additional observations from a re-analysis of the deposited data

How the results depend on the processing

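With 2 libraries per group, the calls of the 8 members in WT MI against WT Sham kept their direction and side of the adjusted p threshold under all alternatives, as did those in Card9 KO MI against WT Sham. S100a13 passed the latter test only without Card9 KO MI replicate 2 (0.58, adjusted p = 0.03). With a fold change of at least 2 required, the count of lower members was 0 and that of higher members 6 in both comparisons with WT Sham (S100a1 and S100a16 falling short), and 9 instead of 17 partner genes were called in WT MI, by construction. Between the infarct groups the number of members called lower was 0 to 1 over the fits with a library left out, the 1 being S100a8 without WT MI replicate 2, and the number of partner genes called was 0 to 2 (Cd36 and Pln, without Card9 KO MI replicate 2). It was 1 with log2(FPKM + 5) and 2 with a mean FPKM of at least 5, and the cause was not tested. With each library left out, S100a4 ran from -0.62 to 0.26 (without Card9 KO MI replicate 2). S100a6 ran from -0.21 (WT MI replicate 2 left out) to 0.35, with -0.14 when Card9 KO MI replicate 1 was left out, and S100a13 from -0.11 (Card9 KO MI replicate 1 left out) to 0.33, with -0.05 when WT MI replicate 2 was left out.

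The log2 ratio of the widely expressed members to S100a1 in WT MI against WT Sham was 2.23 as a median over members and 2.32 after quantile normalization, instead of 2.73, and in Card9 KO MI against WT MI 0.35 as a median, instead of 0.59. A median weights S100a13 and S100a16 like S100a11. Of 238 values of partner genes in WT MI under alternatives, 28 (Tlr4, Cd36, Ahnak, Ryr2 and Pln) missed the threshold with an unchanged direction, and the cause was not tested. The replicate numbers did not pair the libraries, as the differences between replicate 1 and replicate 2 correlated at -0.008 to 0.02 between groups over 13120 genes. With the replicate block, 1 member was called lower between the infarct groups, S100a9 (-1.73, adjusted p = 0.032), and S100a8 was at an adjusted p of 0.054. S100a4, S100a6, S100a8 and S100a9 were higher in replicate 1 in all 3 groups. Depth limits S100b, and the sham values of S100a8 and S100a9, most.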
